A study of Mus musculus with 16 samples.

Results

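Origin licensing was followed in activated mouse T cells through 10 genes: Mcm2, Mcm3, Mcm4, Mcm5, Mcm6 and Mcm7, which encode the subunits of the replicative helicase ring, Mcm10, which acts when the helicase starts, and Orc1, Cdc6 and Cdt1, which load the ring onto DNA. The genes were chosen by name, each through the 1 probe that carries its symbol alone, and all 10 passed the filter on dim probes and were among the 16427 genes tested on 35556 probes. The study asked what Dec1, a helix-loop-helix transcription factor that represses genes and is encoded by Bhlhe40, does in the activation of naive CD4+ T cells. The cells were CD4+CD62LhiCD25- T cells sorted from spleen and lymph nodes of B6 mice, and they were activated in culture for 24 h on antibody-coated latex beads before total RNA was put on arrays. The groups were KO_CD3CD28 (DEC1 knock-out, beads with anti-CD3 and anti-CD28), KO_CD3 (DEC1 knock-out, beads with anti-CD3 alone), WT_CD3CD28 (wild type, both antibodies) and WT_CD3 (wild type, anti-CD3 alone), with 4 arrays each.

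Replication origins are licensed before S phase. The origin recognition complex, whose largest subunit is Orc1, binds DNA and recruits the ATPase Cdc6, and Cdt1 then delivers the MCM ring, which is closed around the double strand in an inactive form. Cdc45 and the GINS proteins later join the ring and turn it into a moving helicase, a step that also needs Mcm10. Resting lymphocytes hold little of this machinery and make it as they leave quiescence, and E2F transcription factors are known to drive many of its genes. Anti-CD3 engages the T cell receptor complex, and anti-CD28 engages a costimulatory receptor that strengthens the entry into division.

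The values are deposited log2 signals made with RMA, a procedure that summarizes the probes of an Affymetrix array, and a difference of 1 is a doubling of signal. Array values of one probe are compared only with those of the same probe, since probes differ in brightness. On the arrays the 10 licensing probes lay between the 44.0 and 97.8 percentiles of all probes. The lowest values were in KO_CD3: Orc1 (44.0 to 48.1), replicate 1 of Cdc6 (44.3) and replicate 1 of Mcm10 (48.1). The labels give replicate numbers 1 to 4 and nothing on separate animals, so p-values cover the spread among these samples, which may be partly technical. The number of arrays limits the precision. Bhlhe40 itself averaged 5.88 ± 0.14 in KO_CD3CD28 and 5.53 ± 0.32 in KO_CD3, against 9.51 ± 0.71 in WT_CD3CD28 and 7.56 ± 0.42 in WT_CD3 (log2, SD, n = 4), every knockout array below every wild-type array, although the sources used here do not give the deleted part of the gene. The tested genes of T cell identity, among them Cd3e, Cd4 and Cd28, had group means of 9.38 to 12.46.

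Xist, the RNA of the inactive X chromosome in female cells, was at 10.44 to 11.36 on 6 arrays (replicates 2 and 4 of both KO groups and replicate 1 of both WT groups) and at 5.09 to 5.80 on the other 10. Each group thus mixes both kinds of sample, but the KO groups hold more arrays with high Xist than the WT groups. KO and WT arrays of the same number are alike in Xist only for replicate 3. A fit with the Xist level as a covariate is given where it changed a call.

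Because the licensing genes moved together, their promoters were read from RefSeq (build GRCm38.p6) in windows of 300 bases, 250 before and 50 after the transcript start. Windows were found for 9 of the 10 genes, Mcm4 being the one without, and Mcm7 had 2. The E2F strings searched on both strands were TTTCCCGC, TTTGGCGC, TTTCGCGC and TTTGCCGC. They occurred in windows of 7 of the 9 genes, 12 times in all, and in 2.26% of all 32851 RefSeq windows and 3.39% of the 16096 windows of tested genes. The matches are shown because E2F factors are known regulators of these genes. In each line the capitals mark the match, the sequence is read 5′ to 3′ on the strand given, and the distance is that of the match's first base along the gene from the start of the transcript.
Orc1, 27 bases before the start, chr4:108579416-108579445, minus strand: aggagaaaactTTTCGCGCcactaaccgaa
Cdc6, 138 bases before the start, chr11:98908002-98908031, minus strand: accccaggcgaTTTCCCGCtctccaccggc
Cdt1, 32 bases after the start, chr8:122568036-122568064, plus strand: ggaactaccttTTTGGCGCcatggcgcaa
Mcm3, 19 bases after the start, chr1:20820275-20820304, plus strand: acttcccaagtTTTCCCGCcacggaagttt
Mcm3, 38 bases after the start, chr1:20820263-20820285, minus strand: acttgggaagtTTTGGCGCcaag
Mcm5, 153 bases before the start, chr8:75109345-75109374, plus strand: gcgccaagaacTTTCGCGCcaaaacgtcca
Mcm5, 149 bases before the start, chr8:75109349-75109378, minus strand: aggctggacgtTTTGGCGCgaaagttcttg
Mcm6, 110 bases before the start, chr1:128359797-128359826, minus strand: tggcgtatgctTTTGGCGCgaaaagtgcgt
Mcm6, 106 bases before the start, chr1:128359793-128359822, plus strand: ccgcacgcactTTTCGCGCcaaaagcatac
Mcm6, 47 bases before the start, chr1:128359734-128359763, minus strand: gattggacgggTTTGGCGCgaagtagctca
Mcm7, 165 bases before the start, chr5:138172030-138172059, plus strand: tggacaccctgTTTCCCGCggttcgaaatt
Mcm7, 16 bases after the start, chr5:138171849-138171878, minus strand: gggtgacgacgTTTCGCGCcaatttcggtt

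The pair of Mcm5 matches overlap on opposite strands, and so do the first pair of Mcm6, while the third Mcm6 match stands alone nearer the start. Mcm2 and Mcm10 held none of these 4 strings, which says only that the letters are not in their windows. CCAAT, the box read by NF-Y, occurred on either strand in 7 of the 9 genes and in 37.4% of all windows. TTTGAA, the core of the cell cycle homology region, occurred in 1 gene, Mcm2, and in 17.9% of all windows. CACGTG, the E-box that Dec1 is known to bind, occurred in 0 of the 9 genes. It was in 7.15% of all windows and 8.99% of the windows of tested genes. With 9 genes, 0 is near these shares, and binding of Dec1 was not tested.

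Whole windows are given for 3 genes that the results turn on: Orc1, which had the smallest p-value of the 10 in each comparison that called any of them, Mcm6, whose window held the most E2F matches, and Mcm2, which had none. Capitals mark E2F matches and run through both where they overlap.
Orc1, chr4:108579204-108579503, plus strand: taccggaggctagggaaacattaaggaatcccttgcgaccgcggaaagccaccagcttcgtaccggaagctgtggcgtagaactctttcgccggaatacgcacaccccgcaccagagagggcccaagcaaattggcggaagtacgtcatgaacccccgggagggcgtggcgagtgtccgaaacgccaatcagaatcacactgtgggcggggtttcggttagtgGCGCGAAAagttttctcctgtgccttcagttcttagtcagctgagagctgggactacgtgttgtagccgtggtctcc
Mcm6, chr1:128359656-128359955, minus strand: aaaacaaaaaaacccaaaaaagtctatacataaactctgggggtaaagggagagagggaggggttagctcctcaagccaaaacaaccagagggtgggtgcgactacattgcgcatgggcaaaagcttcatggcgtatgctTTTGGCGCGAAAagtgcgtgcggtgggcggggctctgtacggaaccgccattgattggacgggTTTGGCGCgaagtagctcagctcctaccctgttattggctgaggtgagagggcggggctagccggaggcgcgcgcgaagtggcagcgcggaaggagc
Mcm2, chr6:88898731-88899030, minus strand: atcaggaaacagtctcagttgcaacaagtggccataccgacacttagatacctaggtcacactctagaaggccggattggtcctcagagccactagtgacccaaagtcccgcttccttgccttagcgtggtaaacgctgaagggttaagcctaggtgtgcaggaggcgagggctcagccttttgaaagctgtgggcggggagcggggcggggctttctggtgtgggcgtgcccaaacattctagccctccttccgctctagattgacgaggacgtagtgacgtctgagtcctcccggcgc

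**Figure D1:**
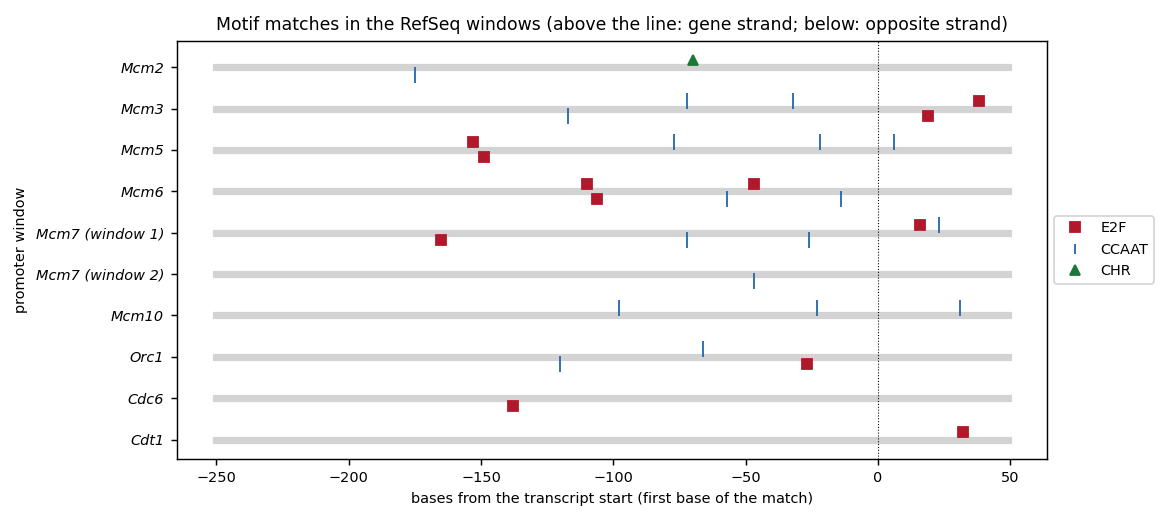
Position of each motif match in the RefSeq promoter windows of 9 licensing genes, in bases from the transcript start, above the line on the gene strand and below it on the opposite strand. Red squares (E2F) stand in 7 of the 9 genes, blue bars (CCAAT) in 7, and the green triangle (TTTGAA) in Mcm2 alone.

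The levels of the 10 genes fell into one order. For every gene the group mean was lowest in KO_CD3, next in WT_CD3 and highest in both groups that had anti-CD28, and in 9 of the 10 KO_CD3CD28 was below WT_CD3CD28, the exception being Orc1. The neighbours KO_CD3CD28 and WT_CD3CD28 overlapped for all 10 genes, KO_CD3 and WT_CD3 overlapped for Mcm6, and arrays with anti-CD28 reached down among those of WT_CD3 for Mcm2 and Cdt1. In a bulk sample, fewer cells with a transcript and less of it per cell cannot be told apart.

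Among the loading factors, Orc1, the ATPase subunit that helps the origin recognition complex grip DNA, was at 9.76, 9.68, 9.55 and 9.52 in replicates 1 to 4 of KO_CD3CD28 and at 6.67, 6.68, 6.79 and 6.76 in KO_CD3. In wild type it was at 9.67, 9.79, 9.47 and 9.51 in WT_CD3CD28 and at 7.49, 7.36, 7.83 and 7.29 in WT_CD3. The 4 KO_CD3 arrays lay close together and under every WT_CD3 array, and no array with anti-CD28 came near either group. Cdc6, the ATPase that joins the recognition complex, was at 9.94, 9.70, 9.74 and 9.78 in KO_CD3CD28 and at 6.61, 7.63, 7.40 and 7.56 in KO_CD3. In wild type Cdc6 was at 9.92, 9.87, 9.86 and 9.72 in WT_CD3CD28 and at 7.91, 7.65, 8.60 and 7.84 in WT_CD3. Its highest KO_CD3 array (7.63) and its lowest WT_CD3 array (7.65) nearly touched, and both groups without anti-CD28 were spread more widely than those with it. Cdt1, which brings the MCM ring to the origin, was at 8.35, 8.20, 7.84 and 8.01 in KO_CD3CD28 and at 7.60, 7.56, 7.48 and 7.14 in KO_CD3. In wild type Cdt1 was at 8.61, 8.32, 8.59 and 7.74 in WT_CD3CD28 and at 7.73, 7.72, 8.03 and 7.76 in WT_CD3. Cdt1 covered the narrowest range of the 3 loading factors, and replicates 3 and 4 of KO_CD3CD28 and replicate 4 of WT_CD3CD28 lay among the WT_CD3 arrays.

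Within the ring, Mcm2, which also binds histones, was at 10.66, 10.56, 10.13 and 10.28 in KO_CD3CD28 and at 9.22, 8.78, 9.34 and 8.43 in KO_CD3. In wild type it was at 10.67, 10.62, 10.93 and 10.10 in WT_CD3CD28 and at 9.92, 9.81, 10.31 and 9.86 in WT_CD3. All KO_CD3 arrays were under all others, while replicates 3 and 4 of KO_CD3CD28 and replicate 4 of WT_CD3CD28 were below replicate 3 of WT_CD3. Mcm3, the neighbour of Mcm5 in the ring, was at 10.97, 10.85, 10.47 and 10.58 in KO_CD3CD28 and at 8.60, 8.09, 9.08 and 8.60 in KO_CD3. In wild type Mcm3 was at 10.90, 11.02, 11.01 and 10.46 in WT_CD3CD28 and at 9.58, 9.67, 10.15 and 9.56 in WT_CD3. For this gene the 3 levels (KO_CD3, WT_CD3 and both groups with anti-CD28) did not overlap.

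Mcm5, which forms the DNA entry gate with Mcm2, was at 10.62, 10.46, 10.12 and 10.05 in KO_CD3CD28 and at 8.36, 8.11, 8.73 and 8.33 in KO_CD3. In wild type Mcm5 was at 10.51, 10.52, 10.61 and 10.06 in WT_CD3CD28 and at 9.39, 9.24, 9.82 and 9.18 in WT_CD3. Its arrays parted into the same 3 levels without overlap. Mcm7, a subunit of the ring's catalytic core with Mcm4 and Mcm6, was at 10.83, 10.72, 10.41 and 10.52 in KO_CD3CD28 and at 9.12, 8.80, 9.35 and 8.64 in KO_CD3. In wild type Mcm7 was at 10.77, 10.84, 10.90 and 10.28 in WT_CD3CD28 and at 9.75, 9.64, 10.08 and 9.72 in WT_CD3. Here too KO_CD3, WT_CD3 and the groups with anti-CD28 kept apart.

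Mcm4 was at 11.21, 11.13, 11.26 and 11.20 in KO_CD3CD28 and at 9.30, 8.93, 10.12 and 9.98 in KO_CD3. In wild type Mcm4 was at 11.20, 11.20, 11.30 and 11.32 in WT_CD3CD28 and at 10.14, 10.16, 10.68 and 10.30 in WT_CD3. Replicates 3 and 4 of KO_CD3 were close under the WT_CD3 arrays and replicates 1 and 2 well below them. Mcm6 was at 11.80, 11.74, 11.85 and 11.86 in KO_CD3CD28 and at 10.48, 10.15, 11.04 and 10.94 in KO_CD3. In wild type Mcm6 was at 11.76, 11.76, 11.80 and 11.99 in WT_CD3CD28 and at 11.02, 10.85, 11.39 and 11.03 in WT_CD3. Replicates 3 and 4 of KO_CD3 overlapped the WT_CD3 arrays for Mcm6, and the groups with anti-CD28 stood above both.

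Mcm10, which is no part of the ring but is needed to start it, was at 9.91, 9.75, 9.73 and 9.80 in KO_CD3CD28 and at 6.80, 6.93, 7.33 and 7.29 in KO_CD3. In wild type Mcm10 was at 9.90, 9.95, 9.80 and 9.66 in WT_CD3CD28 and at 7.59, 7.78, 8.35 and 7.63 in WT_CD3. KO_CD3 lay below WT_CD3 without overlap, and all arrays with anti-CD28 were far above both.

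**Figure D2:**
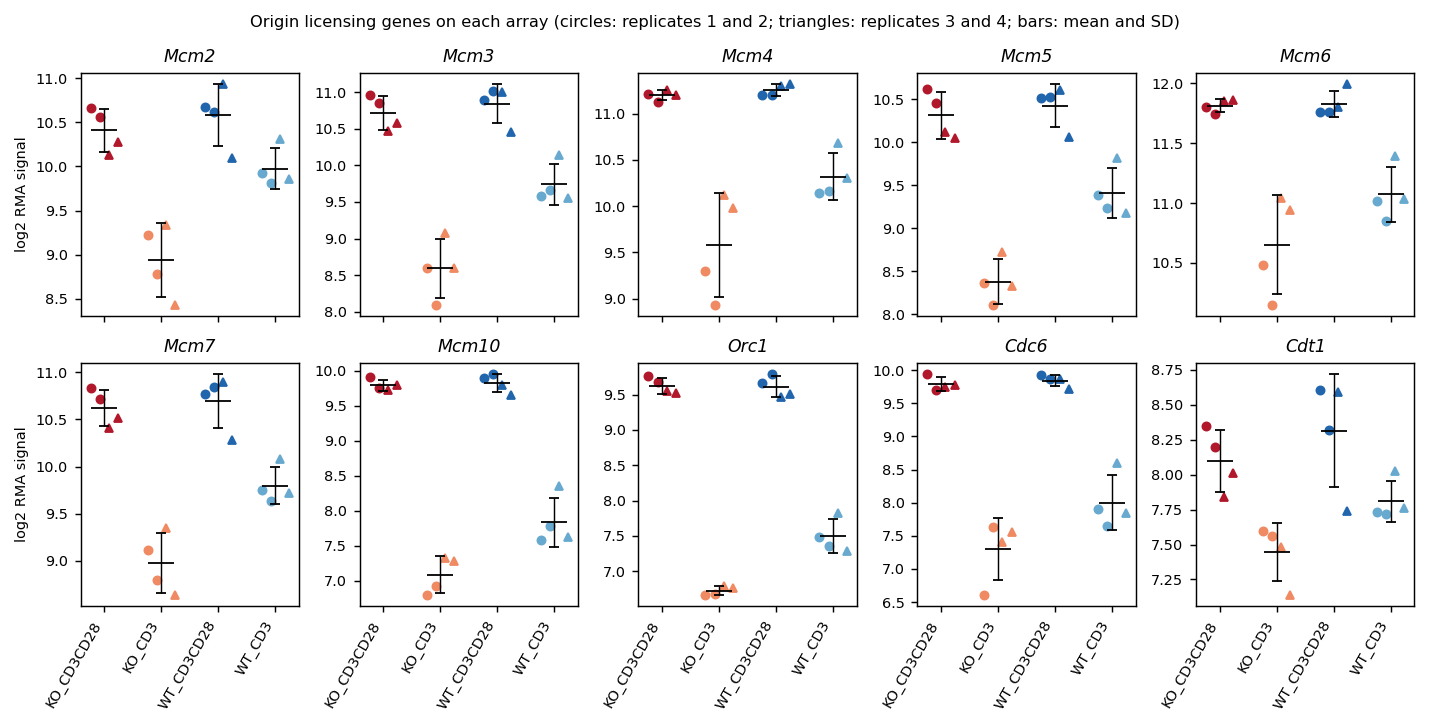
Log2 RMA signal of each licensing gene on each of the 16 arrays by group (circles, replicates 1 and 2; triangles, replicates 3 and 4; bars, mean and SD, n = 4). In every panel KO_CD3 is lowest, WT_CD3 next, and KO_CD3CD28 and WT_CD3CD28 highest and overlapping.

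The first question was what CD28 engagement adds to anti-CD3. All 10 licensing genes rose with anti-CD28 in knockout cells and all 10 in wild-type cells (limma, adjusted p under 0.05 over all genes). In knockout cells 20.4% of all tested genes were called higher (38% in either direction), and in wild-type cells 16% (29% in either direction). The median change of the 10 genes was 1.79 in knockout and 0.98 in wild type, beside medians over all tested genes of -0.06 and -0.03. Their groups did not overlap for 10 genes in knockout, where 18.7% of all genes had the groups apart in this direction, and for 8 in wild type, against 16.2% of all genes. Mcm2 and Cdt1 were the exceptions in wild type. Changes were between 1.57-fold and 7.48-fold in knockout and between 1.42-fold and 4.35-fold in wild type.

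The largest changes were those of genes outside the ring, with the exception of Cdt1. Orc1 rose by 2.90 in knockout (SE 0.11, 7.48-fold, adjusted p = 2.04e-11) and by 2.12 in wild type (SE 0.11, 4.35-fold, adjusted p = 6.87e-10). Mcm10 rose by 2.71 in knockout (SE 0.15) and 1.99 in wild type (SE 0.15), and Cdc6 rose 5.62-fold in knockout and 3.59-fold in wild type (SE 0.20 on the log2 scale in both). In the ring the range was narrower: Mcm3 rose by 2.13 in knockout and 1.11 in wild type (SE 0.19 in both), Mcm5 by 1.93 and 1.01 (SE 0.17) in the same order of genotypes. The smallest ring change was that of Mcm6 in knockout, at 1.16 (SE 0.16), beside 0.76 in wild type, and that of Mcm2 in wild type, at 0.60 (SE 0.20, adjusted p = 0.0302), beside 1.47 in knockout. Mcm4 rose by 1.62 in knockout and 0.94 in wild type (SE 0.19), and Mcm7 by 1.64 and 0.90 (SE 0.16). Cdt1 changed least, with 0.65 in knockout (SE 0.17, adjusted p = 0.00513) and 0.50 in wild type (SE 0.17, adjusted p = 0.0309).

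Matched by replicate number, the change with anti-CD28 was positive in all 40 pairs of gene and number in knockout. It was negative in 1 of 40 in wild type, that of Cdt1 in replicate 4 (-0.02). In knockout this follows from groups that do not overlap, and so it does in wild type for all genes but Mcm2 and Cdt1. The wild-type calls of Mcm2 and Cdt1 depended on single arrays: both were lost without any one of replicates 1, 2 and 4 of WT_CD3 or replicates 1, 2 and 3 of WT_CD3CD28, with adjusted p-values up to 0.0977 for Mcm2 and 0.112 for Cdt1. With replicates 3 and 4 alone, 9 genes were called in knockout, without Cdt1 (adjusted p = 0.12), and 7 in wild type, without Mcm2, Cdt1 and Mcm7 (0.1 for Mcm7). Centring each array on its median added 0.134 to the median of all genes in knockout and 0.091 in wild type. It moved the share of higher genes among all calls from 53.8% to 75.0% in knockout and from 55.1% to 69.3% in wild type, and left all 10 licensing genes called in both.

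Genes of the marker lists were called with anti-CD28 too, as were 38% of all genes in knockout and 29% in wild type (either direction). The shares of all genes called higher were 20.4% and 16%. Of 8 tested B cell genes 5 were lower in knockout and 3 in wild type, and their summed linear signal ranged over 701 to 782 in KO_CD3CD28 and 814 to 992 in KO_CD3, and over 711 to 796 in WT_CD3CD28 and 875 to 999 in WT_CD3. Of 9 myeloid and dendritic genes 5 were lower in knockout and 3 in wild type. Of 6 CD8 and NK cell genes 5 were higher and 1, Klrd1, lower in both genotypes. T cell identity genes were lower too, 4 of 10 in knockout and 5 of 10 in wild type with 1 higher in each, and their sums ranged over 25158 to 29409 in KO_CD3CD28 and 32270 to 36696 in KO_CD3, and over 23267 to 32413 in WT_CD3CD28 and 33747 to 39574 in WT_CD3. The part of these shifts in the licensing result was not tested.

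The second question was what loss of Dec1 does under anti-CD3 alone. In KO_CD3, 6 of the 10 licensing genes were lower than in WT_CD3: Mcm3, Mcm2, Mcm5, Mcm7, Orc1 and Mcm10 (limma). Over all genes 0.749% were called lower and 1.03% in either direction. The 10 genes had a median change of -0.76, beside 0.03 for all tested genes. For 9 of them, Mcm6 being the exception, every KO_CD3 array was below every WT_CD3 array, which held for 6.63% of all genes. All 10 had an unadjusted p under 0.05, as had 24.3% of all genes.

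Mcm3 averaged 8.59 ± 0.40 in KO_CD3 and 9.74 ± 0.28 in WT_CD3 (SD, n = 4), a limma difference of -1.15 (SE 0.19, 2.22-fold lower, adjusted p = 0.0161). Mcm2 was at 8.94 ± 0.42 in KO_CD3 and 9.98 ± 0.23 in WT_CD3, and Mcm5 at 8.38 ± 0.26 in KO_CD3 and 9.41 ± 0.29 in WT_CD3. Their differences were -1.04 (SE 0.20, adjusted p = 0.026) and -1.03 (SE 0.17, adjusted p = 0.0161), about as large as that of Mcm3. Mcm7 was lower by -0.82 (SE 0.16, adjusted p = 0.0295). Outside the ring, Orc1 averaged 6.72 ± 0.06 in KO_CD3 and 7.49 ± 0.24 in WT_CD3, a difference of -0.77 (SE 0.11, adjusted p = 0.00586), and Mcm10 differed by -0.75 (SE 0.15, adjusted p = 0.0313). The 4 genes that did not pass were Mcm4 at -0.74 (SE 0.19, adjusted p = 0.0694), Cdc6 at -0.70 (SE 0.20, adjusted p = 0.0834), Mcm6 at -0.42 (SE 0.16, adjusted p = 0.134) and Cdt1 at -0.36 (SE 0.17, adjusted p = 0.197).

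Replicates of one number vary together in these data. Each of the 40 pairs of gene and number was lower in KO_CD3 than in WT_CD3. For all genes but Mcm6 this follows from groups that do not overlap, and the genes vary together, so the pairs are not separate observations. With the replicate number as a block, 9 of the 10 genes were called, against 11.9% of all genes: Mcm4 (adjusted p = 0.0122), Cdc6 (0.0358) and Mcm6 (0.0381) joined the 6, and Cdt1 did not (0.0845). The number of calls also hung on single arrays. It was 1, Orc1, without replicate 3 of WT_CD3 and likewise without replicate 2 of KO_CD3, 3 without replicate 1 of WT_CD3 and 4 without replicate 1 of KO_CD3. Replicate 3 of WT_CD3 was the highest of its group for 10 of 10 genes. Orc1 was called in all 16 fits that left out an array, of which only those without an array of KO_CD3 or WT_CD3 can change the difference itself. Fitted on KO_CD3 and WT_CD3 alone, 0 of the genes were called, with adjusted p-values of 0.06 for Orc1 and 0.0614 for Mcm5. The differences cannot change in that fit, since the means of these groups stay the same. With Xist as a covariate 4 were called, and Mcm7 (adjusted p = 0.0572) and Mcm10 (adjusted p = 0.0585) were not. Centring the arrays kept 6 calls and moved the share of higher genes among all calls from 27.2% to 4.98%.

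**Figure D3:**
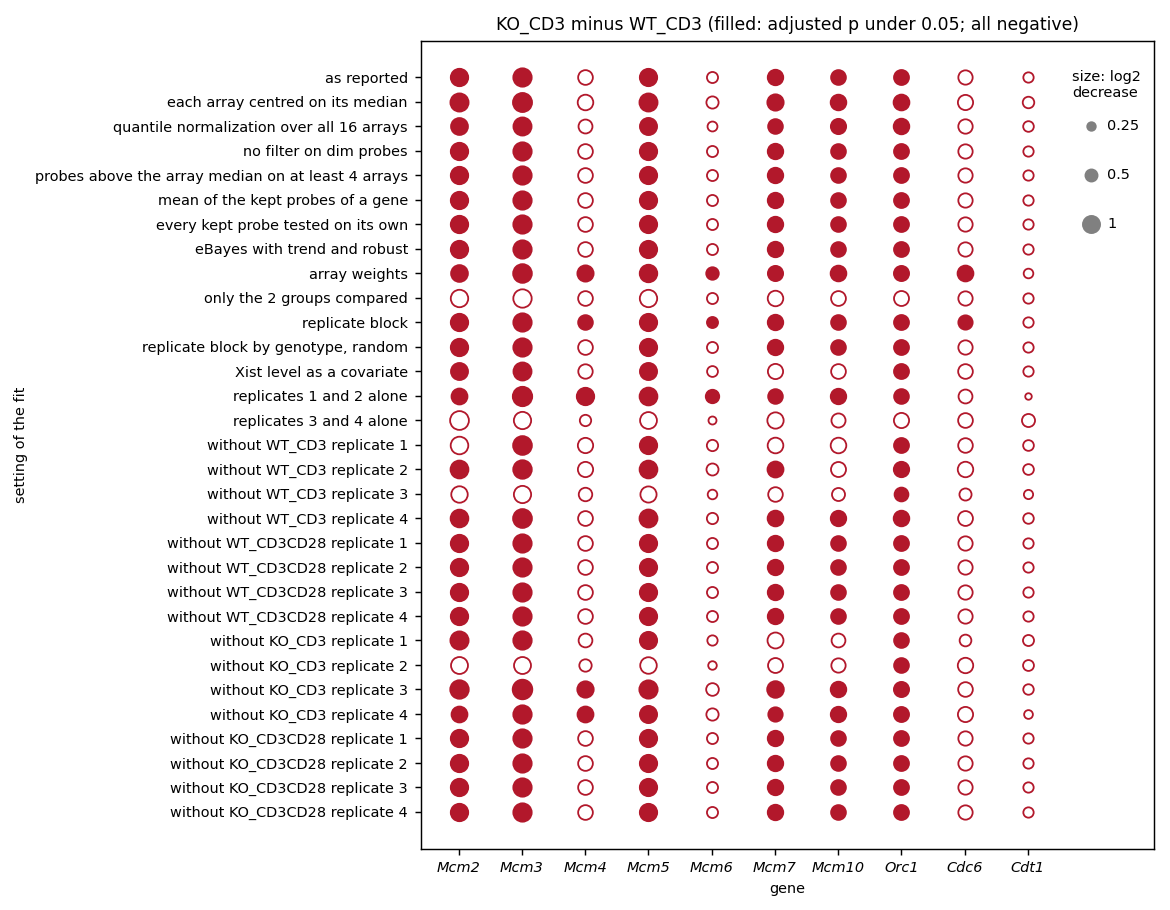
Difference KO_CD3 minus WT_CD3 of each licensing gene (columns) under each setting of the fit (rows), with the area of a circle growing with the log2 decrease and filled circles for an adjusted p under 0.05. The Orc1 column is filled in all fits that leave out 1 array, while that of Mcm6 is filled in 3 settings and that of Cdt1 in none. Leaving out an array with anti-CD28 cannot change the area of a circle.

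The size of the difference varied between replicate numbers, for some genes more than for others. With replicates 1 and 2 alone, the KO_CD3 minus WT_CD3 difference was -1.04 for Mcm4 (adjusted p = 0.00118) and -0.62 for Mcm6 (adjusted p = 0.0143). With replicates 3 and 4 alone it was -0.44 for Mcm4 and -0.22 for Mcm6 (adjusted p = 0.215 and 0.407). For Mcm2 the same fits gave -0.87 with replicates 1 and 2 and -1.20 with replicates 3 and 4, and for Cdt1 -0.15 and -0.58. The other genes had narrower gaps. In the same order, Orc1 was at -0.75 and -0.78, Cdc6 at -0.66 and -0.74, and Mcm10 at -0.82 and -0.68. Mcm5 was at -1.085 and -0.97, Mcm7 at -0.74 and -0.90, and Mcm3 at -1.28 and -1.02. No label sets the replicate numbers apart as a batch. Of the marker lists, 0 of 36 tested genes were called between KO_CD3 and WT_CD3 in limma, where 1.03% of all genes were called. An unadjusted p under 0.05 was found for 11 of the 36, and for 24.3% of all genes. Summed linear signals of B cell genes were 814 to 992 in KO_CD3 and 875 to 999 in WT_CD3, with 4 of 8 differences positive, and those of T cell identity genes 32270 to 36696 in KO_CD3 and 33747 to 39574 in WT_CD3, with 3 of 10 positive. Of the 9 myeloid and dendritic genes 8 were positive, 3 of them with KO_CD3 wholly above WT_CD3 (8.06% of all genes), and their sums were 1175 to 1836 in KO_CD3 and 1468 to 1610 in WT_CD3. The CD8 and NK cell genes summed to 1671 to 2774 in KO_CD3 and 1654 to 1809 in WT_CD3, with 2 of 6 positive, 4 at an unadjusted p under 0.05 and Klrd1 at 0.92 (SE 0.25, adjusted p = 0.0755). The 3 erythroid and platelet genes were all positive, with sums of 307 to 377 in KO_CD3 and 272 to 326 in WT_CD3. The part of these lists in the difference was not tested.

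Under anti-CD3 plus anti-CD28 the licensing genes gave 0 calls between knockout and wild type. Differences KO_CD3CD28 minus WT_CD3CD28 ran from -0.21 (Cdt1, SE 0.17) to 0.02 (Orc1, SE 0.11), with a median of -0.07 and an adjusted p of 0.999 for each (limma), and 0 had an unadjusted p under 0.05. Over all tested genes 1, Bhlhe40, was called (0.00609%). The 95% intervals of the 10 genes lay between -0.59 and 0.37. For Mcm3 the interval was -0.53 to 0.27, for Mcm5 -0.47 to 0.25 and for Orc1 -0.21 to 0.25. Groups overlapped for all 10 genes, where 2.11% of all genes had KO_CD3CD28 wholly above and 0.645% wholly below. By replicate number, 23 of 40 pairs were lower in KO_CD3CD28, and the count of lower genes was 2, 10, 8 and 3 in numbers 1 to 4.

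The change with anti-CD28 was larger in knockout than in wild type for 10 of 10 genes, but no gene passed the test of that difference. The interaction (CD28 effect in knockout minus CD28 effect in wild type) had a median of 0.73 over the 10 genes, beside 0.00 over all genes. It was 1.02 for Mcm3 (SE 0.27, interval 0.46 to 1.58), 0.92 for Mcm5 (SE 0.24), 0.86 for Mcm2 (SE 0.28) and 0.78 for Orc1 (SE 0.15, interval 0.46 to 1.11), and it was smallest for Mcm6 (0.40, SE 0.22) and Cdt1 (0.15, SE 0.24). Adjusted p-values were 0.905 to 0.948 (limma) and 0% of all genes were called. At an unadjusted p under 0.05 there were 8 of the 10, the exceptions being Mcm6 and Cdt1, against 5.28% of all genes. With replicates 1 and 2 alone 3 genes were called, Mcm5 (adjusted p = 0.0168), Mcm3 and Mcm4 (0.0323 each), among 80 calls over all genes. Replicates 3 and 4 alone gave 0 calls over all genes. All these comparisons draw on the same 16 arrays, and KO_CD3 enters the knockout CD28 effect, the genotype difference under anti-CD3 and the interaction.

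**Figure D4:**
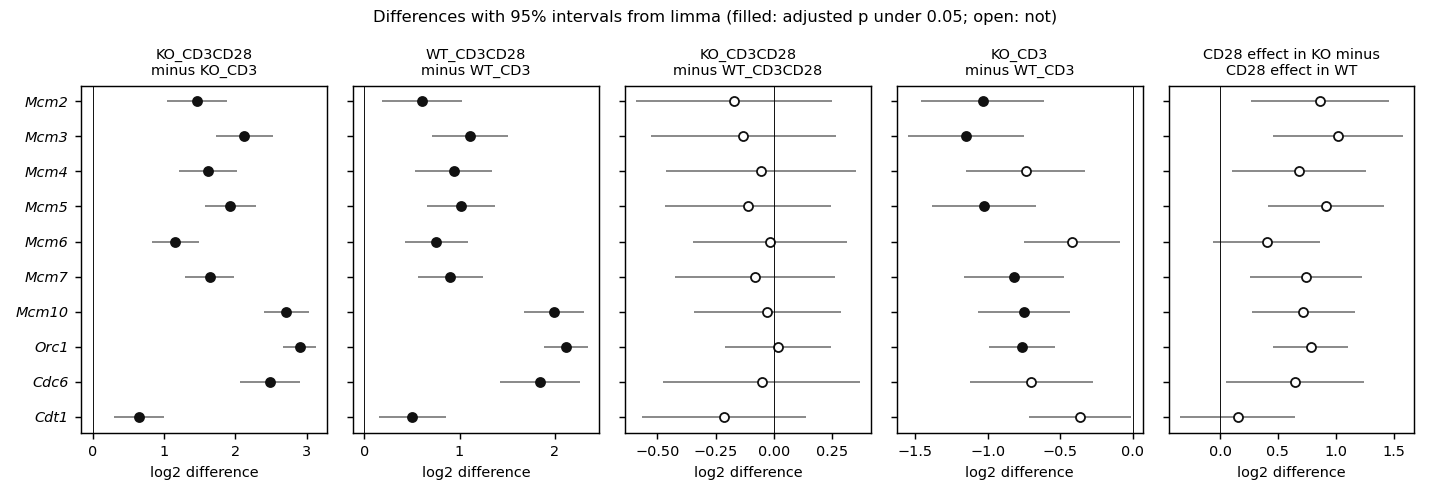
Log2 differences of the licensing genes with 95% intervals from limma in the 5 comparisons (filled, adjusted p under 0.05; each panel has its own scale). All 10 points are filled in the panels for anti-CD28, 6 in the panel KO_CD3 minus WT_CD3, and none in the panels for KO_CD3CD28 minus WT_CD3CD28 and for the interaction.

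The 10 genes varied together to different degrees. Over the 16 arrays the Pearson correlation of their log2 levels was 0.671 to 0.995 over the 45 pairs (median 0.928), given as a description, since the arrays share the 4 group means. After the group means were taken away it was -0.269 to 0.974, with a median of 0.537. Mcm2, Mcm3, Mcm5 and Mcm7 were at 0.758 to 0.974 with each other, and Mcm4 and Mcm6 at 0.969. Between those sets it was 0.0738 to 0.647, a division of the ring that was chosen after the values were seen. Of the 16417 other tested genes, 376 had a correlation over 0.95 with the mean of the 10 genes. The closest were Cdc45, which joins the ring to form the active helicase (0.994), Uhrf1, a reader of hemimethylated DNA (0.992), Dnmt1, the maintenance DNA methyltransferase (0.992), Sae1, a subunit of the SUMO activating enzyme (0.990), the condensin subunit Ncapd2 (0.990), the cyclin-dependent kinase partner Cks1b (0.990), the chromosomal passenger Cdca8 (0.989) and the mitochondrial ribosomal protein Mrps31 (0.989). Correlations of their deviations from the group means with those of the 10 genes were 0.803 to 0.959.

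Genes related to licensing were counted in 5 lists, with 43 tested genes. The lists take in MCM paralogs, E2F factors and pocket proteins besides genes of replication origins. With anti-CD28, 30 were higher and 2 lower in knockout, and 31 were higher and 1 lower in wild type. Over all genes 20.4% were called higher in knockout (38% in either direction) and 16% in wild type (29% in either direction). Between KO_CD3 and WT_CD3 there were 4 lower genes and 0 higher, with 19 at an unadjusted p under 0.05. Of all genes 0.749% were called lower there, and 24.3% had an unadjusted p under 0.05. Between KO_CD3CD28 and WT_CD3CD28, and in the interaction, 0 were called in limma, with 0 and 9 at an unadjusted p under 0.05. The shares of all genes at that p were 3.32% and 5.28%. These shares over all genes also stand beside the counts of the single lists below.

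Of the other subunits of the origin recognition complex and their partner, 4 of 6 rose with anti-CD28 in knockout and 5 of 6 in wild type, with medians of 0.53 and 0.52. Orc6 rose by 2.10 in knockout and 1.61 in wild type, Orc2 by 1.39 and 1.12, Orc3 by 0.59 and 0.52, and Orc5 by 0.48 and 0.52. Orc4 passed in wild type alone (0.44, adjusted p = 0.0182, beside 0.31 and adjusted p = 0.0756 in knockout, with an interaction of -0.13 that was not called), and Lrwd1, a protein that stabilizes the complex on chromatin, passed in neither (0.15 in knockout and -0.11 in wild type). Between KO_CD3 and WT_CD3 the list had a median of -0.17 and 0 calls, with 2 genes at an unadjusted p under 0.05, against 24.3% of all genes. Orc6 was at -0.55 (adjusted p = 0.0929) and Orc2 at -0.32 (adjusted p = 0.109).

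Of 10 genes that control licensing, 6 rose in knockout and 7 in wild type. Dtl, which targets Cdt1 for destruction in S phase, rose by 2.89 in knockout and 1.57 in wild type, and Gmnn, the inhibitor that binds Cdt1, by 2.48 and 1.53. Ccnf, the F-box protein that removes Cdc6, rose by 1.66 in knockout and 1.78 in wild type, and Skp2, an F-box protein with Cdt1 among its targets, by 1.20 and 1.31. Under anti-CD3 alone 1 gene of the list was lower in knockout, Dtl, at -1.32 (adjusted p = 0.0163), while Gmnn was at -0.78 (adjusted p = 0.0625) and Skp2 at -0.04. In the interaction Dtl stood at 1.32 and Gmnn at 0.95, neither of them called.

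Helicase activation and firing had 13 tested genes, of which 12 rose in knockout and 12 in wild type, Donson not passing in either. The list medians were 1.38 in knockout and 1.17 in wild type. The largest changes were those of Ticrr, which brings Cdc45 to the loaded ring, at 3.14 in knockout and 2.32 in wild type, and of Cdc45, at 2.70 and 1.72. Mtbp, the partner of Ticrr, rose by 1.72 and 1.47, and the GINS subunit Gins1 by 2.29 and 1.24. Under anti-CD3 alone Ticrr was lower in knockout by -1.04 (adjusted p = 0.0262) and Cdc45 by -1.01 (adjusted p = 0.0246). The other 11 did not pass, with a list median of -0.34 and Gins1 at -0.95 (adjusted p = 0.0871). Interactions were largest for Gins1 (1.04) and Cdc45 (0.98), and neither was called.

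The MCM paralogs outside the ring did not share one pattern. Mcm8, which works with Mcm9 in homologous recombination, rose by 2.04 in knockout and 1.94 in wild type, while Mcm9 was at 0.12 in both and not called. Mcmdc2, a meiotic relative, was lower with anti-CD28 in knockout (-0.40, adjusted p = 0.0156) and not called in wild type (-0.17), with an interaction of -0.23 that was not called. None of the 3 was called between KO_CD3 and WT_CD3, and 2 had an unadjusted p under 0.05, against 24.3% of all genes.

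Of 11 E2F factors and pocket proteins, 7 rose and 1 fell in knockout, and 6 rose and 1 fell in wild type. E2f8, an atypical repressor, rose by 4.11 in knockout and 3.10 in wild type, and E2f3, an activator, by 2.76 and 1.96. E2f7, the other atypical repressor, rose by 0.91 in knockout and 0.99 in wild type. Rbl2, the pocket protein p130 of quiescent cells, fell by 0.80 in knockout and by 0.79 in wild type. Under anti-CD3 alone E2f8 was lower in knockout (-1.24, adjusted p = 0.0483), and E2f3 was at -0.99 (adjusted p = 0.0518). These were the largest decreases of the list, which had a median of -0.05 with 3 of 11 differences positive. The interaction was 1.00 for E2f8 and 0.80 for E2f3, without a call.

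**Figure D5:**
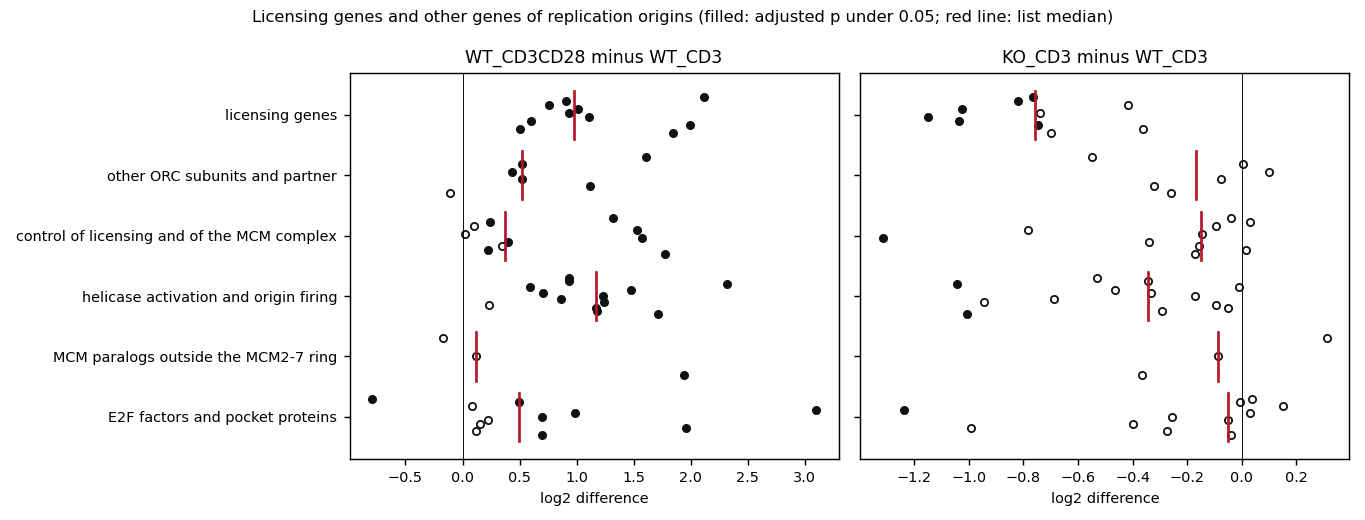
Log2 differences of the licensing genes and of 5 lists of related genes, WT_CD3CD28 minus WT_CD3 on the left and KO_CD3 minus WT_CD3 on the right (filled, adjusted p under 0.05; red lines, list medians). The licensing genes have a median of 0.98 on the left and -0.76 on the right, beside 1.17 on the left and -0.34 on the right for the firing list.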

How the data were processed

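Total RNA of 16 cultures was measured on Affymetrix mouse arrays. The deposited values are log2 signals that the authors made with RMA, per the submitters' processing notes. The builds of the genome and of the array design are not given in the sources used here. Of 35556 probes, 23410 are in the probe table supplied with the series, 21789 of them with 1 gene symbol and 1621 with several, which were not used.

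Probes were kept when above the 25th percentile of their array on at least 4 arrays, and a gene was represented by its probe of highest mean, giving 16427 genes. One fit over all 16 arrays, with a mean per group, was made with limma 3.58.1 in R 4.3.3 (lmFit and eBayes, 12 residual and 4.92 prior degrees of freedom). P-values were adjusted by Benjamini-Hochberg over all genes tested, with a threshold of 0.05. The fit was tested on simulated data. Tables and figures were made in Python 3.11.15 with numpy 2.4.6, pandas 2.3.3 and matplotlib 3.10.9.

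The licensing genes, the lists and the motifs were chosen with earlier results of these data known. From each list the 4 genes with the largest change with anti-CD28 in wild type, the 2 with the largest interaction and those called against the rest were named. Orc4, Lrwd1 and Donson were named after their values were seen.

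Replicate numbers come from the titles. Deviations from the group means correlated over 0.1 in every same-numbered pair (lowest 0.157 to 0.217 in the 4 comparisons), so the numbers were taken to pair the samples and a fit with the number as a block was made as well. Other settings changed the array scaling, the filter, how a gene's probes were used, the variance model, the array weights, the samples fitted, the block and Xist, or left out arrays. Some marker genes are not reported here.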

Additional observations from a re-analysis of the deposited data

Results flagged for a closer look

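Of 40 sets of 4 arrays (10 licensing genes in 4 groups), 1 held an array far from the others. For Cdt1, replicate 3 of WT_CD3 was at 8.03 and the other 3 arrays at 7.72 to 7.76, so that the gap made up 0.891 of the range of the group, over Dixon's critical value for 4 samples. Chance flags about 1 in 20 such sets.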

How the results depend on the processing

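The CD28 effect kept its direction for all 10 licensing genes in both genotypes under each of the 30 alternatives, and the median change in knockout was 2.18 with replicates 1 and 2 alone. Many of the settings cannot change a difference between 2 groups, here or below, but only its p-value. They are those of the filter, of a gene's probes, of the variance model and of the block. The same holds for fits that leave out only arrays of other groups. The wild-type call of Mcm2 was lost also after a further quantile normalization (adjusted p = 0.0694). Between KO_CD3 and WT_CD3 all differences stayed negative, and the count of called genes was 0 when fitted on those groups alone and 0 with replicates 3 and 4 alone, 9 with array weights, 9 with the replicate block, 8 with replicates 1 and 2 alone, and 1 to 7 when single arrays were left out. Over all genes this comparison gave 169 calls, 261 after centring, 597 with array weights, 5 on the 2 groups alone, 1954 with the replicate block, 49 with Xist, 1388 with replicates 1 and 2 alone, 0 with replicates 3 and 4 alone and 7 to 452 when single arrays were left out, so calls near the threshold rest on the setting. With replicates 3 and 4 alone the CD28 effect fell to 2896 calls in knockout, against 6245, and to 2650 in wild type, against 4770. With replicates 1 and 2 alone the genotype difference under both antibodies had 2 calls, against 1, and the interaction 80, against 0, with 3 of the licensing genes. The replicate block changed no other call of a licensing gene.

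Differences near 0 between KO_CD3CD28 and WT_CD3CD28 changed sign without a call. Orc1 was at -0.027 after centring, -0.011 with array weights, -0.0074 with replicates 1 and 2 alone and -0.0266 to 0.078 when single arrays were left out. Mcm6 was at 0.0024 with Xist, 0.0105 with replicates 1 and 2 alone and -0.040 to 0.0379 without single arrays. Mcm5 was at 0.0254 with replicates 1 and 2 alone, and Mcm10 at 0.0366 with replicates 3 and 4 alone and -0.0821 to 0.0129 without single arrays. The Cdt1 interaction was at -0.0439 with replicates 1 and 2 alone and -0.0413 to 0.248 without single arrays. The cause was not tested for any of these. The files hold no detection calls, so how near the dimmest values (Orc1, and replicate 1 of Cdc6 and of Mcm10, in KO_CD3) are to background is not known here.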
